A study of Homo sapiens with 6 samples.

Results

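NOTCH1, NOTCH2 and NOTCH3 (receptors), JAG1, JAG2 and DLL1 (ligands) and HES1, HEY1, HEYL and NRARP (target genes) were followed in paclitaxel (PTX)-resistant MDA-MB-231 cells sorted by aldehyde dehydrogenase (ALDH) activity. These 10 genes were taken by symbol from 61014 genes with a transcript in the count file, and 8 of them had enough counts to be tested among 20442 genes. MDA-MB-231 is a human triple-negative breast cancer line, and by the study's description all 6 libraries came from its PTX-resistant derivative. The 3 BCSC libraries (breast cancer stem-like cells, ALDH+) were compared with the 3 non-BCSC libraries (ALDH−). By that description both groups share the cell line and the resistance, whereas only the BCSC titles name them. The titles do not give the ALDH status, and the labels give no dose or duration of paclitaxel. The cell type label is the same for all 6 samples, so the groups rest on the sample titles. Nothing states that replicates came from separate cultures or sorts, and p-values measure the spread between these libraries, which may be technical.

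Notch receptors are surface proteins that are activated by ligands of the Jagged and Delta-like families on a neighbouring cell. Ligand binding leads to cleavage by an ADAM protease and then by γ-secretase, and the freed intracellular domain enters the nucleus, where it joins the DNA-binding protein RBPJ and a Mastermind coactivator. Genes of the HES and HEY families, which encode transcriptional repressors, and NRARP, which encodes a feedback inhibitor, are well-known targets. In breast epithelium the pathway is known for its roles in progenitor cells and luminal fate, and in breast cancer for its study as a stem-like cell pathway.

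NOTCH2 was higher in BCSC, by 2.38-fold, and HEY1 was lower, by 4.68-fold. The other 6 genes tested did not pass the test, and their BCSC and non-BCSC values overlapped. NOTCH3 and HEYL had too few counts to be tested. A gene was called at an adjusted p under 0.05 and a fold above 2 in edgeR's quasi-likelihood test on counts summed per gene, with Benjamini-Hochberg adjustment over all genes tested. By this rule 1 of the 8 tested genes was higher, where 8.85% of all genes tested were, and 1 was lower, where 11.3% of all genes tested were. The BCSC and non-BCSC values did not overlap in 2 of the 8, where they did not overlap in 52.1% of all genes tested. With no minimum fold the same 2 of the 8 passed, where 29.9% of all genes tested did. The median log2 fold change was 0.10 over the 8 and −0.05 over all genes tested.

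**Figure D1:**
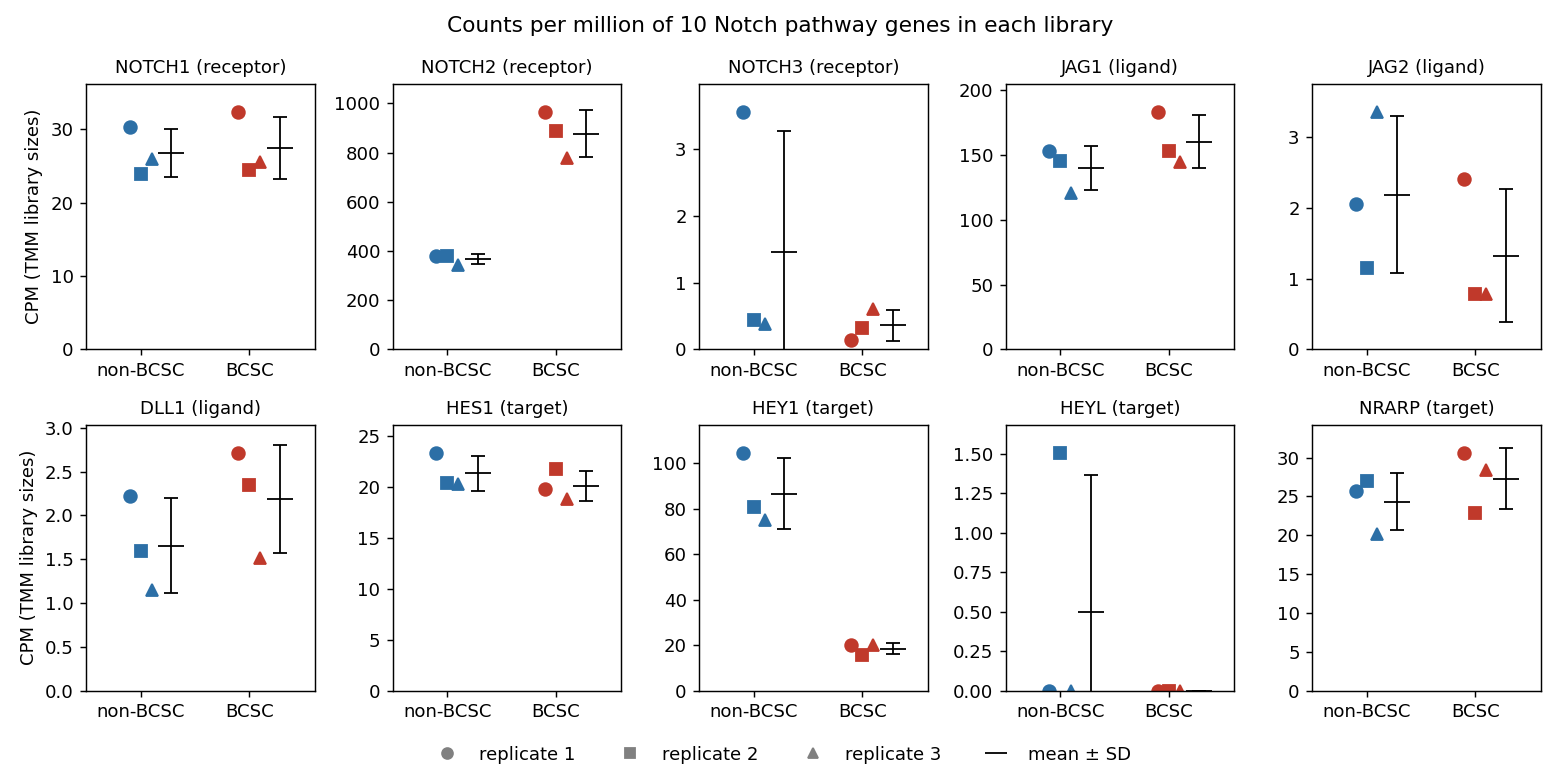
Level (CPM, counts scaled to a common TMM-adjusted library size, linear axis from 0) of the 10 genes in each of the 3 non-BCSC and 3 BCSC libraries. Points are libraries, bars the mean ± SD, cut at 0 where the SD runs below it. NOTCH2 lay between 777 and 965 CPM in BCSC and between 345 and 382 CPM in non-BCSC, HEY1 lay between 15.5 and 20 CPM and between 74.8 and 104 CPM, and the points of the other genes overlapped between groups.

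The libraries held 15925943 to 21215352 counts in BCSC against 9898588 to 12263667 in non-BCSC, so a count of 0 allows up to 3 counts, or 0.148 to 0.288 CPM on the TMM scale used throughout, counting error only. Olfactory receptor genes, which breast cells are not known to use, are a measure of counts at silent genes. Over 391 of them the level was 1.03 to 3.19 counts per kb in BCSC and 8.33 to 15.3 in non-BCSC. Markers of a mesenchymal triple-negative line (VIM, CD44, MSN, CAV1 and AXL) summed to 7666 to 8131 TPM (counts per transcript length, scaled to a common total) in BCSC and 5255 to 7130 in non-BCSC, with 1 of 5 called higher in BCSC. The sums for 8 luminal markers were 52.6 to 63.5 TPM in BCSC and 151 to 196 in non-BCSC (PGR, KRT8 and KRT18 called lower in BCSC). KRT8 and KRT18 made up 9.17 to 16.7 TPM of these sums in BCSC and 95.7 to 150 in non-BCSC, and the other 6 luminal markers 42.1 to 47.5 and 46.1 to 55.7. For 5 fibroblast markers the sums were 33.5 to 37.2 and 49.3 to 91.0 (2 called lower). The sums for 6 leukocyte markers were 1.36 to 2.29 TPM in BCSC and 14.5 to 30.3 in non-BCSC (1 called lower, PTPRC). For 5 endothelial markers, with PECAM1 not analysed here, the sums were 22 to 33.7 and 47.3 to 66.4 TPM (1 called lower, CDH5). Not every marker ran with its sum. The endothelial KDR had a mean of 7.46 TPM in BCSC and 4.72 in non-BCSC, and the luminal GATA3 13.1 and 8.30, neither called. The differences in silent-gene level and marker sums run with the groups, and their part in the results was not tested. In such bulk libraries, fewer cells of a type and less RNA per cell cannot be told apart.

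Of the receptors, NOTCH2 was the one that differed. Its gene lies on the minus strand at chr1:120454176-120643366 (GRCh37). The counts were 19587, 13624 and 12843 in BCSC, against 4623, 4285 and 3596 in non-BCSC. On the scale of library size these were 965, 889 and 777 CPM against 382, 379 and 345 CPM, and every BCSC library lay above every non-BCSC library. The means were 877 ± 94.6 CPM and 368 ± 20.4 CPM (SD, n = 3 each), a log2 fold change of 1.25 (SE 0.11, 95% interval 1.01 to 1.49, edgeR adjusted p = 0.000152). NOTCH2 was called higher under all 16 alternatives run, with each library left out in turn included (log2 fold change 1.18 to 1.33, edgeR adjusted p 0.000323 to 0.00378). With the olfactory receptor level subtracted and the counts normalized again, the log2 fold change was 1.01. Per kb, NOTCH2 was 821 times that level in BCSC and 39.6 times in non-BCSC.

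NOTCH2 has near-identical partial copies, the NOTCH2NL genes, and the counting could have split reads between them. The 4 NOTCH2NL genes held 2258, 2046 and 2180 counts in BCSC against 1109, 1113 and 980 in non-BCSC. That was 11.5% to 17.0% of the NOTCH2 counts in BCSC against 24.0% to 27.3% in non-BCSC. None of the 4 was called, with log2 fold changes from 0.07 for NOTCH2NLB to 0.60 for NOTCH2NLR (edgeR adjusted p 0.785 and 0.558). With their counts added to NOTCH2, an alternative chosen after the data were seen, its log2 fold change was 1.11 and the call held.

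NOTCH1 (chr9:139388885-139440500, minus strand), the receptor best known as an oncogene in T-cell leukaemia, had 656, 375 and 421 counts in BCSC against 367, 271 and 270 in non-BCSC. These gave 32.3, 24.5 and 25.5 CPM against 30.3, 23.9 and 25.9 CPM, with replicate 1 the highest library of both groups. The groups overlapped, and the log2 fold change was 0.04 (SE 0.21, 95% interval −0.42 to 0.50, edgeR adjusted p = 0.905). With counts corrected for GC content and length, it was −1.0 (edgeR adjusted p = 0.00486), a call for lower in BCSC. NOTCH1 has a GC content of 63.7%, against a median of 46.2% over all genes tested, and the correction moved the median of all genes from −0.05 to 0.24. Per kb, NOTCH1 was 35.0 times the olfactory receptor level in BCSC but only 3.06 times in non-BCSC.

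NOTCH3 (chr19:15269849-15311806, minus strand), a receptor best known in vascular smooth muscle, had 3, 5 and 10 counts in BCSC against 43, 5 and 4 in non-BCSC. All but non-BCSC replicate 1 were at or below 10 counts, and the gene was not tested. Per kb its mean level was 0.390 times that of the olfactory receptor genes in BCSC and 0.178 times in non-BCSC, so no NOTCH3 expression could be told from the counts at silent genes.

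Among the ligands, JAG1 was the only one well above that level. JAG1 (chr20:10618332-10654647, minus strand), a Jagged-family ligand, had 3715, 2345 and 2385 counts in BCSC against 1856, 1643 and 1259 in non-BCSC. These gave 183, 153 and 144 CPM against 153, 145 and 121 CPM, and the groups overlapped. The log2 fold change was 0.20 (SE 0.13, 95% interval −0.10 to 0.50, edgeR adjusted p = 0.288). The interval leaves out a change of 2-fold in either direction.

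JAG2, the other Jagged ligand (chr14:105607319-105635161, minus strand), had 49, 12 and 13 counts in BCSC against 25, 13 and 35 in non-BCSC. Its means were 1.33 ± 0.941 CPM and 2.19 ± 1.11 CPM (SD, n = 3 each), with overlapping values, and the log2 fold change was −0.71 (SE 0.88, 95% interval −2.68 to 1.26, edgeR adjusted p = 0.566). All 35 counts of non-BCSC replicate 3 were assigned to the transcript JAG2-202, which held 2 counts in BCSC replicate 1 and 0 in the other libraries. DLL1 (chr6:170591294-170615653, minus strand), a Delta-like ligand, had 55, 36 and 25 counts in BCSC against 27, 18 and 12 in non-BCSC. Its groups overlapped at 2.19 ± 0.614 CPM and 1.66 ± 0.542 CPM (SD, n = 3 each), and the log2 fold change was 0.40 (SE 0.76, 95% interval −1.29 to 2.09, edgeR adjusted p = 0.715). With the olfactory receptor level subtracted it was 2.71 (edgeR adjusted p = 0.219), which is no measured fold. The subtraction used the mean length of the annotated transcripts (2163.5 bases), whereas all DLL1 counts lay on DLL1-201 (3779 bases). Per kb, the non-BCSC level of DLL1 was below that of the olfactory receptor genes.

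In non-BCSC the per-kb level of JAG2 was 0.376 times that of the olfactory receptor genes and that of DLL1 was 0.447 times. In BCSC they were 2.41 and 5.77 times that level, whereas JAG1 was 306 times it in BCSC and 26.8 times in non-BCSC. A difference in JAG2 or DLL1 inside the intervals above was not detectable at this depth. DLL1 overlaps FAM120B on the opposite strand, which held 6457 counts over the 6 libraries, and whether the counting used strand is not stated.

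Of the target genes, HEY1 was the one that differed. HEY1 (chr8:80674606-80680092, minus strand), a basic helix-loop-helix repressor, had 406, 238 and 329 counts in BCSC against 1263, 913 and 780 in non-BCSC. On the scale of library size these were 20, 15.5 and 19.9 CPM against 104, 80.7 and 74.8 CPM, so that the lowest non-BCSC library was well above the highest BCSC library. The means were 18.5 ± 2.55 CPM and 86.6 ± 15.6 CPM (SD, n = 3 each), a log2 fold change of −2.23 (SE 0.19, 95% interval −2.65 to −1.81, edgeR adjusted p = 0.000144). HEY1 was called lower under all 16 alternatives run, and leaving out each library in turn gave log2 fold changes of −2.30 to −2.02 (edgeR adjusted p 0.000679 to 0.00309). It was −1.63 with GC content and length corrected and −2.44 with the olfactory receptor level subtracted. Per kb, HEY1 was 35.2 times the olfactory receptor level in non-BCSC. The luminal, leukocyte, endothelial and fibroblast marker sums were lower in the same 3 libraries as HEY1, though not every marker was. The part of these sums in the HEY1 result was not tested.

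HES1 (chr3:193853937-193856521, plus strand), the most widely used readout of Notch activity, had 401, 333 and 311 counts in BCSC against 282, 231 and 211 in non-BCSC. These gave 19.8, 21.7 and 18.8 CPM against 23.3, 20.4 and 20.2 CPM, and the groups overlapped. The log2 fold change was −0.08 (SE 0.21, 95% interval −0.56 to 0.39, edgeR adjusted p = 0.785), an interval that leaves out a change of 2-fold in either direction. NRARP (chr9:140194083-140196723, minus strand), whose ankyrin-repeat product binds the Notch intracellular domain complex and limits its activity, had 620, 351 and 470 counts in BCSC against 312, 306 and 210 in non-BCSC. Its values of 30.5, 22.9 and 28.4 CPM overlapped the 25.7, 27.0 and 20.1 CPM of non-BCSC. The log2 fold change was 0.17 (SE 0.22, 95% interval −0.32 to 0.65, edgeR adjusted p = 0.584). With GC content and length corrected it was −0.85 (edgeR adjusted p = 0.0220), short of the minimum fold, at a GC content of 59.2%.

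HEYL (chr1:40089107-40105315, minus strand), another HEY-family repressor, had 0 counts in 5 libraries and 17 in non-BCSC replicate 2. It was not tested, and at 0 of 15925943 to 21215352 counts the BCSC libraries allow up to 0.148 to 0.196 CPM each. No difference in HEYL was detectable at this depth.

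HES1 and HEYL are shown by sequence because theirs were the only promoter windows of these genes with the letters TGGGAA, the core of the site that RBPJ is known to bind. RefSeq promoters (GRCh38.p14, 250 bases before to 50 after the start) matched 8 of the 10 genes by symbol, and the letters were searched on both strands. HES1 and HEYL each held 2 matches and the other 6 genes (NOTCH1, NOTCH2, NOTCH3, JAG1, JAG2 and NRARP) held 0, against 24% of 35116 promoters of the same length with at least 1. The 250 bases before the start are given 5′ to 3′ on the strand of the gene, with the matches in capitals (TTCCCA is the same motif read on the other strand). They lie at chr3:193853687-193853936 (plus strand) and chr1:40105316-40105565 (minus strand) of GRCh37, where each run was found at 1 place and 0 of its bases are in annotated exons.
HES1: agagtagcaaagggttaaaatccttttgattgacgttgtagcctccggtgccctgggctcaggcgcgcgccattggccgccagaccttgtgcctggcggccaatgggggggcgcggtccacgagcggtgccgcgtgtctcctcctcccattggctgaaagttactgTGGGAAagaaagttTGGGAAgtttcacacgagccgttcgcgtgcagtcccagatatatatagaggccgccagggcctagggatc
HEYL: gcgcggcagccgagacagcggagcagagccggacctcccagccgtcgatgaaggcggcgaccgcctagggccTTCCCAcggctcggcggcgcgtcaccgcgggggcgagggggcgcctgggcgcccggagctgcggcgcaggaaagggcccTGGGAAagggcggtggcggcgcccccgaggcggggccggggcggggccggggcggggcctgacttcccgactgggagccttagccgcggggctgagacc
In HES1 the matches begin 84 and 70 bases before the start, on the same strand. In HEYL they begin 178 and 99 bases before it, on opposite strands. A match is a description of the letters and no measure of binding. HES1 with its pair of matches had overlapping levels in BCSC and non-BCSC, and HEYL was at 0 in 5 of 6 libraries.

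Per length, the order of the levels differed between the groups mainly through HEY1. In BCSC the mean TPM ran from NOTCH2 (216 TPM) through JAG1 (80.0), HES1 (34.6), NRARP (26.9), HEY1 (18.8), NOTCH1 (9.10), DLL1 (1.5), JAG2 (0.589) and NOTCH3 (0.110) to HEYL at 0, and the ranges of no pair of neighbours overlapped. In non-BCSC NOTCH2 (103 TPM), HEY1 (90.1) and JAG1 (69.2) came first, and the range of HEY1 overlapped those of both its neighbours. HES1 (36.8 TPM), NRARP (24.0) and NOTCH1 (7.93) followed without overlap. DLL1 (1.14 TPM), JAG2 (1.01), NOTCH3 (0.428) and HEYL (0.321) overlapped each with the next.

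**Figure D2:**
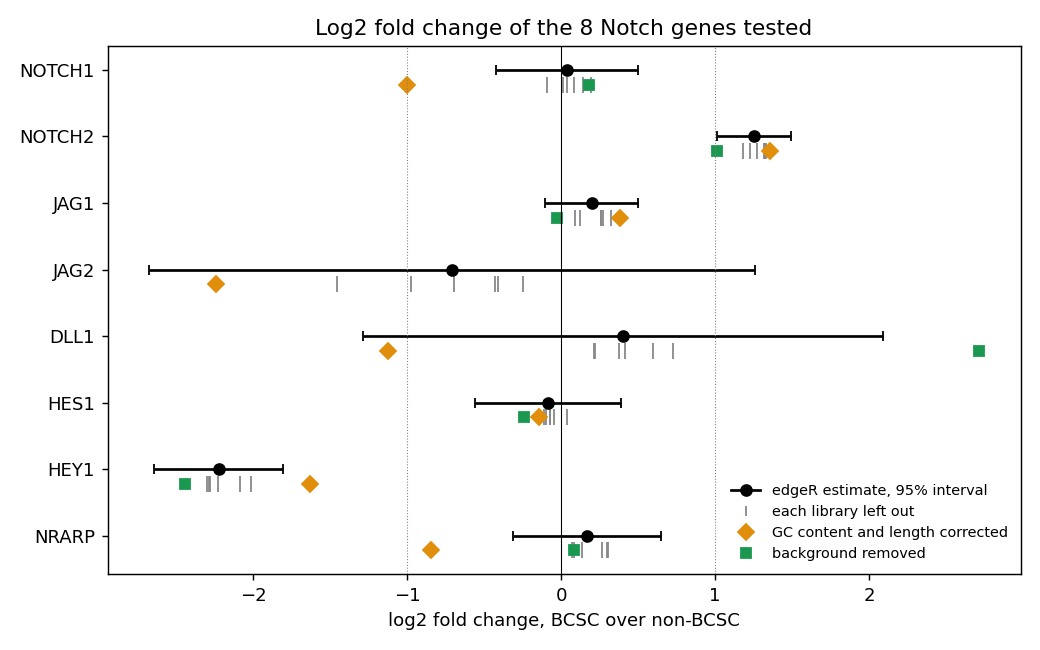
Log2 fold change (BCSC over non-BCSC) of the 8 genes tested, with the edgeR estimate and its 95% interval in black, the estimates with each of the 6 libraries left out as grey ticks, and those with GC content and length corrected or with the background of olfactory receptor genes removed as coloured marks. Dotted lines stand at the minimum log2 fold of 1. NOTCH2 stayed above 1 and HEY1 below −1 at every mark, while NOTCH1, DLL1 and NRARP crossed 0 to −1.0, −1.13 and −0.85 with GC content and length corrected.

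The correction for GC content and length turned the sign of 3 of the 8 genes, NOTCH1, DLL1 and NRARP, and each other alternative turned at most 1. The GC content was 63.7% for NOTCH1, 64.0% for JAG2, 63.4% for DLL1 and 59.2% for NRARP, and 46.8% to 51.0% for HEY1, JAG1, NOTCH2 and HES1. With the correction the log2 fold change was −1.0 for NOTCH1, −2.24 for JAG2 (edgeR adjusted p = 0.0556), −1.13 for DLL1 (edgeR adjusted p = 0.267) and −0.85 for NRARP. It was 0.38 for JAG1, 1.35 for NOTCH2 and −0.14 for HES1. The median over the 8 genes went from 0.10 to −0.93, while that over all genes went from −0.05 to 0.24. The corrected calls then covered 20% of all genes higher and 8.65% lower.

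The deposited rows are transcripts, and they show which isoforms carried each sum. Of 67 annotated transcripts of the 10 genes, 41 had counts, 19 were tested and 1 was called, where 0.784% of 46176 transcripts tested were. The called transcript was NOTCH2-201, the long protein-coding form of 11425 bases, which held 96.2% to 99.1% of the NOTCH2 counts in every library. Its counts were 19416, 13409 and 12654 in BCSC, against 4447, 4144 and 3493 in non-BCSC, a log2 fold change of 1.36 (edgeR adjusted p = 0.0359). Nearly all NOTCH2 counts of both groups thus lay on 1 transcript. This call was lost when any library was left out and with a replicate block, where 0 member transcripts were called.

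HEY1 was divided among more forms. HEY1-202, a protein-coding form, had 132, 83 and 139 counts in BCSC against 438, 331 and 225 in non-BCSC, with no overlap once scaled, and its log2 fold change of −2.02 did not pass (edgeR adjusted p = 0.0807, SE 0.45). HEY1-201, also protein-coding, had counts only in the replicate 1 library of each group, 149 in BCSC and 571 in non-BCSC. HEY1-208, annotated for nonsense-mediated decay, had 216 counts in non-BCSC replicate 2 and 0 elsewhere. The retained-intron forms HEY1-205, HEY1-214 and HEY1-206 were tested, with log2 fold changes of −1.72, −1.97 and −2.04, and none passed (edgeR adjusted p 0.250, 0.302 and 0.753). Protein-coding forms together held 52.1% of HEY1 counts in BCSC against 53.2% in non-BCSC, and their sum alone had a log2 fold change of −2.41 (edgeR adjusted p = 0.0329).

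The NOTCH1 counts were assigned to different forms from library to library, and how reads were shared between forms is not stated. NOTCH1-214 took 84.1% of the NOTCH1 counts in BCSC replicate 1 and 0% in the other 5 libraries, whereas NOTCH1-205 took 3.05% there and 59.6% to 96.0% elsewhere. Both are annotated for nonsense-mediated decay, and 0% of the NOTCH1 counts fell on transcripts annotated as protein-coding. For JAG1, JAG1-201 held 95.5% to 98.1% of the counts, and for HES1, HES1-201 held 87.1% to 96.5%. NOTCH3-201, DLL1-201, HEYL-201 and NRARP-201 were the only forms with counts for their genes, and JAG2-201 held the most for JAG2, 110 of its counts over 6 libraries.

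**Figure D3:**
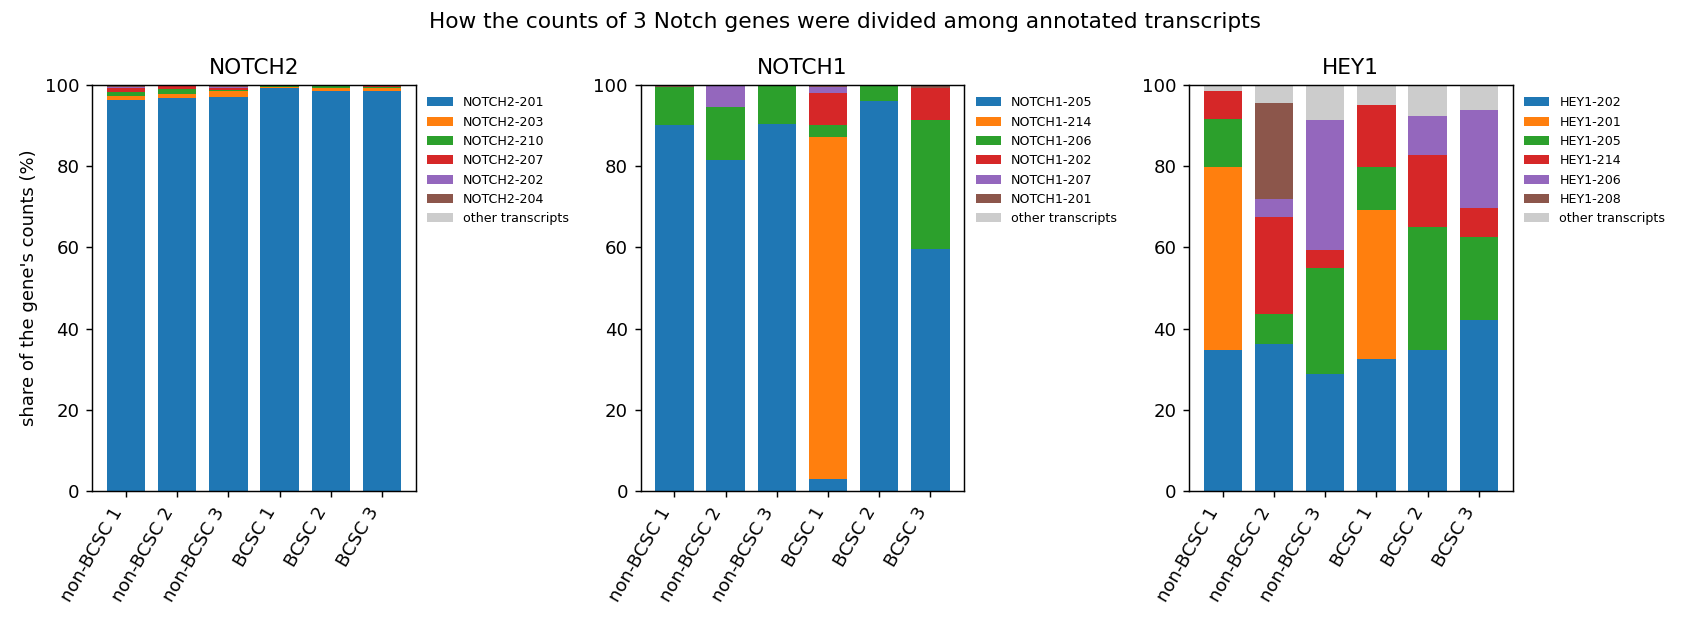
Share of the counts of NOTCH2, NOTCH1 and HEY1 given to each annotated transcript (percent, linear axis from 0 to 100) in the 3 non-BCSC and 3 BCSC libraries. NOTCH2-201 filled 96.2% to 99.1% of every bar, NOTCH1-214 filled 84.1% of BCSC replicate 1 only, and HEY1-201 appeared in the replicate 1 library of both groups only.

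A list of 58 other genes of the pathway was read alongside. Of these 49 were tested, 15 were higher in BCSC (30.6%, against 8.85% of all genes tested) and 1 was lower (2.04%, against 11.3%). The median log2 fold change was 0.40, against −0.05 over all genes tested. The 15 higher genes had a median GC content of 57.6%, against 48.3% for the other listed genes tested and 46.2% for all genes. With GC content and length corrected 12 listed genes were called higher, 6 of them among the 15, and 3 were called lower, CNTN1 not among them. These are 24.5% and 6.12% of the 49, where the corrected fit called 20% of all genes tested higher and 8.65% lower, so the corrected share of higher genes was near that of all genes. The corrected median was 0.79, against 0.24 over all genes. Of the 16 called genes, 12 held their call with each library left out in turn. DLK2 and PSENEN lost it in 2 of 6 fits (without BCSC replicate 1 or 2), NUMBL in 4 and RFNG in 5. With the olfactory receptor level subtracted, 4 lost it. POFUT1 and DTX3L, at 0.97 and 0.85, were short of the minimum fold, and NUMBL and NFKB2 did not pass the test (edgeR adjusted p 0.0829 and 0.0545).

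In each role, the most abundant gene is the one with the highest mean TPM over all 6 libraries. The counts by role below stand beside 8.85% of all genes tested called higher and 11.3% called lower. With GC content and length corrected these shares were 20% and 8.65%, and only 6 of the 15 higher calls held. Among 7 other receptors and ligands, 4 were tested, 2 were higher and 1 was lower. DNER, an EGF-repeat Notch ligand best known in neurons and the most abundant of this group, had 911, 557 and 759 counts in BCSC against 43, 100 and 102 in non-BCSC (42.4 ± 5.25 against 7.39 ± 3.36 CPM, SD, n = 3 each). Its log2 fold change was 2.52 (edgeR adjusted p = 0.00149, SE 0.35), and 2.76 with GC content and length corrected. DLK2, a non-canonical Delta-like protein, had 53, 39 and 51 counts in BCSC against 3, 0 and 1 in non-BCSC (edgeR adjusted p = 0.0188). CNTN1, a neural adhesion protein described as a Notch ligand, had 42, 38 and 65 counts against 136, 106 and 150, a log2 fold change of −2.04 (edgeR adjusted p = 0.00773, SE 0.42). The call was lost with GC content and length corrected, at −0.84 (edgeR adjusted p = 0.0855). The receptor NOTCH4 and the ligand DLL4 had too few counts to be tested, and the ligand DLK1 was at 0 in all 6 libraries.

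Of the 5 enzymes that glycosylate the receptors, 4 were tested, 2 were higher and 0 lower. POFUT1, which adds O-fucose to the EGF repeats and was the most abundant, rose from 57.1 ± 12.1 to 126 ± 13.7 CPM (log2 fold change 1.14, edgeR adjusted p = 0.00202, SE 0.17). RFNG, a Fringe enzyme that extends that fucose, had 150, 75 and 82 counts in BCSC against 10, 0 and 14 in non-BCSC (log2 fold change 2.98, edgeR adjusted p = 0.0477, SE 1.0). Per kb its non-BCSC level was 0.419 times that of the olfactory receptor genes, so its fitted value is no measured fold. After the GC and length correction POFUT1 had 1.21 and was called, while RFNG had 1.31 and did not pass (edgeR adjusted p = 0.254).

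All 9 genes of receptor cleavage were tested, and 3 were higher and 0 lower. FURIN, which cuts the receptor precursor during maturation, had 33.3 ± 9.05 CPM in BCSC and 9.57 ± 0.567 CPM in non-BCSC (log2 fold change 1.80, edgeR adjusted p = 0.00171, SE 0.26). The γ-secretase subunits APH1A (log2 fold change 2.04, edgeR adjusted p = 0.000961, SE 0.26) and PSENEN (1.34, edgeR adjusted p = 0.0189, SE 0.35) were higher too. ADAM17, an ADAM protease and the most abundant gene of this role per length, had a log2 fold change of −0.28 (edgeR adjusted p = 0.0636, SE 0.10) and did not pass. With GC content and length corrected, FURIN had a log2 fold change of 0.56 and PSENEN 0.79, and neither passed, while APH1A had 1.38 and did. ADAM17 then had 0.70 (edgeR adjusted p = 0.0227), short of the minimum fold.

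The nuclear complex and its corepressors were all tested (13 genes), and 2 were higher and 0 lower. RBPJ, the DNA-binding partner and the most abundant per length, had 265 ± 41.3 CPM in BCSC and 263 ± 21.2 CPM in non-BCSC (log2 fold change 0.01, edgeR adjusted p = 0.950, SE 0.13). MAML1, a Mastermind coactivator, had 83.3 ± 15.6 against 37.2 ± 3.46 CPM (log2 fold change 1.16, edgeR adjusted p = 0.00191, SE 0.17). In TPM, which depends on the transcripts that counts were assigned to, MAML1 had 53.8 ± 7.34 in BCSC and 75.6 ± 45.5 in non-BCSC. CTBP1, a corepressor, had 93.7 ± 14.7 against 33.5 ± 4.39 CPM (log2 fold change 1.48, edgeR adjusted p = 0.000629, SE 0.17). With GC content and length corrected these were 1.24 for RBPJ, which was then called, 0.55 for MAML1 and −0.13 for CTBP1.

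Of 14 genes of ligand and receptor trafficking and turnover, 13 were tested, 5 were higher and 0 lower. The ubiquitin ligases DTX2, DTX3 and DTX3L, members of the Deltex family, had log2 fold changes of 2.18, 1.88 and 1.03 (edgeR adjusted p 0.00518, 0.00680 and 0.000528). Corrected for GC content and length, these were 0.69, 0.94 and 1.65, and only DTX3L of the 3 was called. AAK1, a kinase of clathrin-mediated endocytosis, had 293 ± 20 CPM against 118 ± 3.09 CPM (log2 fold change 1.31, edgeR adjusted p = 8.57e-05, SE 0.10). NUMBL, an endocytic adaptor related to the Notch antagonist NUMB, had a log2 fold change of 1.58 (edgeR adjusted p = 0.0434, SE 0.51), which was −0.10 with GC content and length corrected. MIB1, the ubiquitin ligase that acts on the ligands and the most abundant here, had 0.03 (edgeR adjusted p = 0.877, SE 0.13). With GC content and length corrected MIB1 had 1.33 (edgeR adjusted p = 0.000627) and was called higher.

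Of 10 other described targets, 6 were tested, 1 was higher and 0 lower. NFKB2, an NF-κB subunit gene, had 435, 201 and 198 counts in BCSC against 57, 27 and 11 in non-BCSC (log2 fold change 2.50, edgeR adjusted p = 0.00906, SE 0.53). The value was 1.11 with GC content and length corrected and did not pass (edgeR adjusted p = 0.0515). CCND1, encoding cyclin D1 and the most abundant, had 339 ± 21.7 CPM against 181 ± 8.99 CPM, a log2 fold change of 0.91 (edgeR adjusted p = 0.000516, SE 0.10) that was short of the minimum fold and was −0.59 with GC content and length corrected. In TPM, CCND1 had 234 ± 22.3 in BCSC and 273 ± 228 in non-BCSC. HES2, HES4, HES5 and HES7, all repressors of the same family as HES1, had too few counts to be tested, with HES5 at 0 in all 6 libraries.

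**Figure D4:**
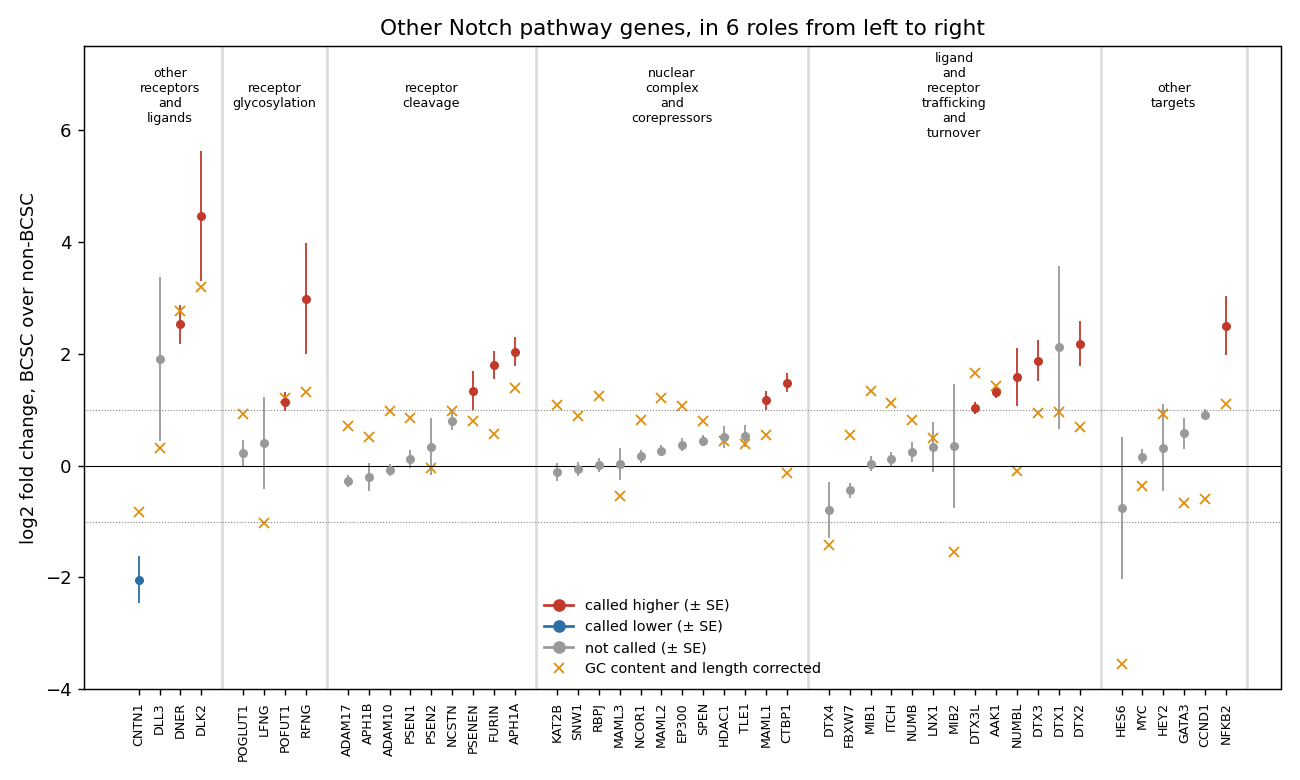
Log2 fold change (BCSC over non-BCSC, ± SE) of the 49 listed pathway genes tested, 1 of them not shown, by role from left to right, with genes called higher in red, the 1 called lower in blue and crosses for the estimate with GC content and length corrected. Dotted lines stand at a log2 fold of 1 in either direction. The 15 red points are spread over all 6 roles, and CNTN1 is the blue point. The fitted value of DLK2, whose non-BCSC libraries held at most 3 counts, depends on the prior count and is no measured fold. That of RFNG, whose non-BCSC level was below that of the olfactory receptor genes, is no measured fold either.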

How the data were processed

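LncRNA sequencing of total RNA was carried out on 3 BCSC and 3 non-BCSC libraries, and the labels describe random priming with a dUTP-marked second strand that was degraded. The deposited table holds estimated counts per transcript, which the authors made from aligned reads, as whole numbers without normalization. The submitters' processing notes name HISAT2, featureCounts, DESeq2 and hg38, whereas the study's RNA-Seq methods name hg19. Those methods may describe the study's other RNA-seq experiment, a knockdown in BCSC. For lncRNAs in BCSC and non-BCSC, the study's methods describe a microarray and its results describe sequencing. The step that shared reads between transcripts, the annotation release and the use of strand are not given in the sources used here.

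Of 252618 transcripts, 249787 were matched by identifier to GENCODE on GRCh37, whose gene coordinates are printed. The 2827 unmatched transcripts (0.228% to 0.340% of counts) and 4 with assembler identifiers were left out of the gene sums. Counts were summed per gene and compared between groups, with no other term, by the robust quasi-likelihood method of edgeR 4.0.16 under R 4.3.3 (filterByExpr, TMM), which was first tried on simulated data. CPM use TMM library sizes, TPM use annotated transcript lengths, and SDs have n = 3. The biological coefficient of variation was 0.453 for genes and 1.02 for transcripts, and replicate pairs differed by more than counting noise (chi-square per degree of freedom 15.2 to 42.1). Reads carry no molecular identifiers.

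The alternatives tried were a replicate block, each library left out, DESeq2 1.42.0, RLE size factors, no count filter or a minimum of 10 counts per library, unadjusted p, no minimum fold, a loess correction (span 0.3) for GC content and length, subtraction of the olfactory receptor level per kb, thinning to the smallest library, and protein-coding transcripts only. The loess correction used the mean GC content and mean length of a gene's annotated transcripts, whichever of them held the counts. For NOTCH2 that mean length was 2219 bases, whereas NOTCH2-201 has 11425. The subtraction used the same mean length, and the counts were normalized again after it. Adding the NOTCH2NL genes was chosen after seeing the data. The genes and lists were chosen with earlier results of these data known. Named were all 10 members, in each role of the pathway list the called genes and the one with the highest mean TPM, and per member the top and the called transcripts. Other names (untested genes, further isoforms) were chosen after their values were seen. Values of 2 listed genes are not reported here.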

Additional observations from a re-analysis of the deposited data

How the results depend on the processing

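NOTCH2 was called higher and HEY1 lower under each of the 16 alternatives. With GC content and length corrected, 2 of the 10 genes were called lower in place of 1, NOTCH1 being added, and in the pathway list 3 were lower in place of 1. The list had 2 lower genes with no count filter and with no minimum fold, and 11 to 19 higher over the alternatives (11 to 16 with each library left out). Called member transcripts were 1, and 3 with DESeq2 or an unadjusted p, 2 with at least 10 counts, 0 with each library left out and 0 with a replicate block. Some members that were not called changed sign: NOTCH1 to −0.051 with RLE size factors or DESeq2, −0.11 with at least 10 counts, −0.093 to 0.19 with libraries left out (below 0 without BCSC replicate 1) and −1.0 with GC content and length corrected, JAG1 to −0.029 with background removed, DLL1 to −1.13 and NRARP to −0.85 with GC content and length corrected, and HES1 from −0.11 to 0.037 with libraries left out (above 0 without non-BCSC replicate 1). In all, 133 member values kept direction and call and 9 changed sign. This tally includes the unadjusted p and no minimum fold, which reuse the main estimate and could not change its sign. It also includes the fit with NOTCH2NL added, which altered the counts of no member but NOTCH2. The cause of the sign changes was not tested.

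Over all genes, 1810 were higher and 2307 lower. Higher were 959 without BCSC replicate 1, 4085 with GC content and length corrected, 909 with protein-coding transcripts only and 3125 with no minimum fold. Lower were 3512 with DESeq2, 1177 with at least 10 counts, 1198 and 1143 without BCSC replicates 1 and 2, 1103 without non-BCSC replicate 3, 1081 with background removed, 735 with protein-coding transcripts only and 3527 with an unadjusted p. Same-numbered libraries correlated at 0.179, 0.0143 and 0.219 in their deviations. Replicates 1 and 3 correlated best with their own number, and replicate 2 did not. Whether the numbers pair the samples is thus not settled, and the main fit did not use them as pairs. The replicate block left NOTCH2 at 1.25 and HEY1 at −2.22, with 15 listed genes higher and 1 lower. JAG2 with background removed and NOTCH1 with protein-coding transcripts only gave no value, and NOTCH3 and HEYL were too sparse to test at this depth.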
